A study of Mus musculus with 82 samples.

Results

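The regions described here carried acetylation of lysine 27 of histone H3 (H3K27ac) in wild-type mouse stembryos collected 108 h, 132 h, 144 h and 168 h after aggregation. Members were chosen by label: the 4 wild-type H3K27ac lists of these stages without a replicate number, out of 21 H3K27ac lists and 82 samples in the series. The 4 lists merged into 56874 regions on the 21 assembled chromosomes of mm10, of which 37867 were distal, that is, farther than 1 kb from every annotated transcript start. Promoters were scored for 21911 protein-coding genes, and a promoter carried a region when one lay within 1 kb of any of its gene's starts.

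The study followed chromatin over time in stembryos, gastruloid-like aggregates grown from EmbryoMax 129/SVEV mouse embryonic stem cells and exposed to the Wnt agonist Chiron between 48 h and 72 h. All 4 libraries were of wild-type genotype, had received the same Chiron pulse and differed only in the stage of collection. Each was made from pooled stembryos, and from the later stages only aggregates that were clearly elongating were collected. There was 1 library per stage, so no difference between stages could be tested, and the spread between 3 wild-type libraries of one stage, available at 96 h and at 120 h, served as the measure of error. In pooled aggregates, fewer cells of a type and less of the mark per cell cannot be told apart.

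H3K27ac is deposited by the acetyltransferases p300 and CBP and marks active promoters and active enhancers, where the charge of the histone tail is neutralised and bromodomain proteins are recruited. In the elongating end of the embryo, bipotent axial progenitors that express T and Sox2 feed both the presomitic mesoderm, which is cut into somites by a Notch, FGF and Wnt driven clock, and the neural tube. The Hox genes are switched on one after the other along their clusters during this process, and posterior members are the last to be activated.

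Shown first are 4 distal regions near genes on which the results turn, each as 150 bases of the + strand of GRCm38 (mm10) read from the RefSeq genome, with capitals at exact matches to the SOX word CATTGT or the TCF/LEF word CTTTGAT on either strand. They were chosen after their values were seen. The Sox9 region, chr11:113164605-113165829, lay 383 kb from the Sox9 start and the Pou3f2 region, chr4:22477271-22478743, lay 10.4 kb from the Pou3f2 start. Both had no region at 108 h and had one at 132 h, 144 h and 168 h. The Msgn1 region, chr12:11217480-11218790, and the Eya1 region, chr1:14257239-14257736, lay 8.78 kb and 26.0 kb from their genes and were listed at 108 h but at none of the 3 later stages. The printed windows were chr11:113165285-113165434, chr4:22478594-22478743, chr12:11217722-11217871 and chr1:14257404-14257553.
Sox9 distal region: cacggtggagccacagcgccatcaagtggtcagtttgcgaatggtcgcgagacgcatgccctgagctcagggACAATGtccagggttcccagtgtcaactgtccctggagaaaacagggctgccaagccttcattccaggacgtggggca
Pou3f2 distal region: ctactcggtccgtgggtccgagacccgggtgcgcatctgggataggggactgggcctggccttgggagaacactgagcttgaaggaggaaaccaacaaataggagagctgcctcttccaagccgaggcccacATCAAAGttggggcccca
Msgn1 distal region: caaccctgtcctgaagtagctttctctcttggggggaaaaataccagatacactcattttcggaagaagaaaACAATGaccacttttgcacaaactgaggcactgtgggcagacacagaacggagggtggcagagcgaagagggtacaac
Eya1 distal region: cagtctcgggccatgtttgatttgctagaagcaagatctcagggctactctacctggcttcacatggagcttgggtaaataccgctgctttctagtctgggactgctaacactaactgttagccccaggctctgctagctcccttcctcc

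The height of a region is given throughout as its pileup, the number of sequenced fragments that overlap at its summit. At the 3 later stages, in order, the pileup of the Sox9 region was 22, 29 and 35, and that of the Pou3f2 region 19, 25 and 60. The height of both therefore went up at each step in these libraries. The Msgn1 region had a pileup of 36 at 108 h and the Eya1 region one of 46, and both were also called in the 2 numbered 120 h libraries. NIPBL, the cohesin loader, had a region over the Sox9 site at 168 h but not at 108 h, and over the Eya1 site at 108 h but not at 168 h. It did not change at the others, with a region over the Pou3f2 site at both stages and over the Msgn1 site at neither.

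The lists differed in length. In order of stage they held 37283, 32911, 24002 and 36784 regions. The 144 h list was the shortest, covered 17.2 Mb against 23.4 to 26.7 Mb for the others, and had 42.7% distal regions against 52.9% to 55.9%. The median pileup over promoters that carried a region at all 4 stages was 72, 63, 46 and 88 in order of stage, so the regions of the 144 h library were also the lowest, although its lowest background of 3.60 fragments per base lay within the range of the other libraries. Counts are therefore given at full length and with every list reduced to its 24002 regions of highest −log10 p.

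At promoters, most of the mark was stable from 108 h to 168 h. A region was present at all 4 stages at 11043 promoters (50.4% of those scored). A promoter was called gained when it had no region at 108 h and one at both 144 h and 168 h, and lost in the reverse case. At full length 181 promoters (0.826%) were gained and 622 (2.84%) lost. At equal length the counts were 346 (1.58%) gained and 380 (1.73%) lost, so losses no longer clearly outnumbered gains. Without the 144 h library 634 promoters counted as gained, and without the 168 h library 1387 counted as lost. Applying the same rule to 3 libraries of one stage gave 105 to 628 promoters of the gained form and 62 to 1173 of the lost form at full length, and 51 to 612 and 41 to 1648 at equal length. All 4 promoter totals lay within those ranges, and the number of changing promoters by itself was not larger than the spread between libraries of one stage.

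Distal regions turned over much more. At full length 4582 (12.1%) were kept through all 4 stages, 1830 (4.83%) were gained and 11052 (29.2%) lost. At equal length 2877 (7.6%) were kept, 1845 (4.87%) gained and 4338 (11.5%) lost. The full-length gains rested most on the 144 h library: without it 11281 distal regions counted as gained, and without the 168 h library 3554. The 3 libraries of one stage gave 1284 to 8612 of the gained form and 3549 to 12676 of the lost form at full length, and 683 to 1959 and 1788 to 3606 at equal length. Only the 4338 distal losses at equal length lay outside the range of libraries of one stage.

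**Figure D1:**
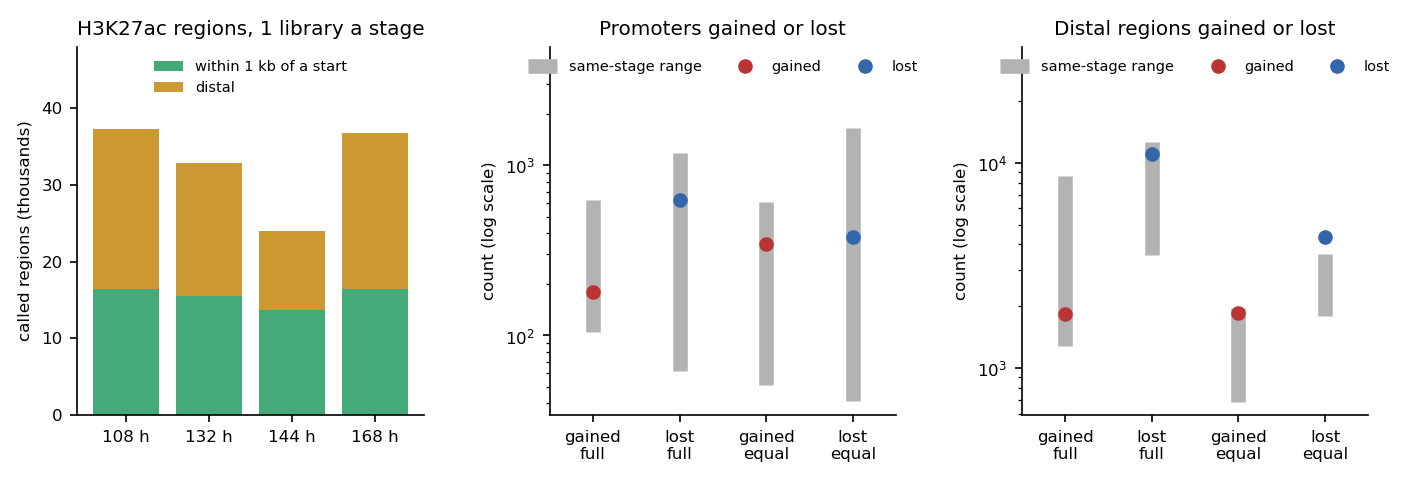
The left panel shows the called regions of the 4 libraries, split into those within 1 kb of a transcript start and distal ones, by hours after aggregation. The other panels show, on a log scale, the promoters and distal regions called gained or lost at full and at equal list length (points). Grey bars give the range that the same rule gave for 3 wild-type libraries of one stage. The distal losses at equal length, 4338, sit above their range of 1788 to 3606, which was scored on fewer regions. The other counts sit within their ranges.

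At equal length the share of distal regions not found at another stage went up with the time between collections. Of the distal regions of the 108 h list, 44.8% were absent from the 132 h list, 53% from the 144 h list and 58.8% from the 168 h list. In the other direction, 44.6%, 52.2% and 56.4% of the distal regions of the 132 h, 144 h and 168 h lists were absent from the 108 h list. Between libraries of one stage the share was 25.7% to 46.5%. The 108 h and 132 h lists thus differed no more than libraries of one stage could. At equal length 108 h differed from 144 h and from 168 h by more than any same-stage pair. Regions at transcript starts did not show this: 9.28% of those of 108 h were absent at 168 h and 13.2% of those of 168 h were absent at 108 h, within the 5.05% to 23.9% seen between libraries of one stage. At full length the distal same-stage shares were 26.3% to 60.9%. The 59.2% and 56.8% between 108 h and 168 h lay within that range. Of the comparisons with 108 h, only the 70.1% of its distal regions absent from the 144 h list lay above it.

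Gained and lost regions were low in height. The median pileup of gained promoters was 27 at 168 h and that of lost promoters 16 at 108 h, against 72 at 108 h for kept promoters. Distal gained regions had a median of 26 at 168 h, distal lost regions 18 at 108 h and distal kept regions 34 at 108 h. Median widths were 749 bp for distal gained, 418 bp for distal lost and 1174 bp for distal kept regions, and median distances to the nearest protein-coding start were 35.9, 28.5 and 26.8 kb. At 144 h the distal gained regions had a median pileup of 19, close to that of the lost ones, and the lost regions were the narrowest. The changes were spread over the time course: 122 of the 181 gained promoters already carried a region at 132 h and 59 did not, and 410 of the 622 lost promoters had none at 132 h while 212 still did. Among distal regions, 912 gained ones were present at 132 h and 918 were not, and 8641 of the lost ones were absent at 132 h and 2411 still present.

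The Hox clusters included the tallest gained promoter at 168 h, that of Hoxc9. Hox genes encode the homeodomain factors that set position along the body axis. Of 14 posterior genes (paralogy groups above the ninth and Evx1 and Evx2), 3 were gained (21.4%, against 0.826% of all promoters) and none was lost. Of 15 central genes, 2 were gained (13.3%) and none lost. None of the 12 anterior genes was gained or lost at full length. With 3 and 2 genes these shares rest on few promoters, and neighbouring Hox promoters can share a region.

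Among the central genes, Hoxc9 had no region at 108 h and pileups of 116, 96 and 226 at 132 h, 144 h and 168 h. Hoxd8 likewise had none at 108 h and then 64, 57 and 127. Both were gained at equal length and with a promoter window of 2.5 kb too, and both were called in the 2 numbered 120 h libraries. With a −log10 q of at least 5, Hoxd8 was still gained and Hoxc9 was not. Hoxd9 carried a region throughout, at 50, 86, 85 and 216. Hoxa9 was listed at 37, 110, no region within 1 kb at 144 h (105 within 2.5 kb), and 185. Hoxa5 and Hoxb5, at the front of this group, moved little or the other way, from 224 to 178 and from 242 to 189 between 108 h and 168 h, while Hoxb9 went from 108 to 193.

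Among the posterior genes, Hoxa10 had no region within 1 kb at 108 h and then 79, 105 and 187. A region of 37 lay 2486 bp away at 108 h, so Hoxa10 counted as kept with a window of 2.5 kb, with which 176 promoters (0.803%) were gained and 719 (3.28%) lost in all. Hoxa11 followed at 21, 30 and 116, and Hoxc11 had no region within 1 kb at 108 h or 132 h and then 32 and 101. A 108 h region lay 1483 bp from Hoxc11, so with the wider window only Hoxa11 of the posterior genes was still gained. Hoxc10 was low at 108 h with 19 and reached 67, 78 and 174. Of the 4 stages, Hoxd10 was listed at 132 h with 36 and at 168 h with 128, and Hoxd13 at 168 h with 19, which failed the rule because 144 h had no region. Anterior promoters could also lack a region within 1 kb at 108 h and have one later. Hoxa2 had 159 at 132 h and 215 at 168 h, and Hoxa3 had 171 at 168 h. Within 2.5 kb Hoxa2 already had 139 at 108 h, whereas Hoxa3 had none. The gained ones were not without the mark at other times: the 96 h list had Hoxc9 at 31, Hoxd8 at 25, Hoxc11 at 23, Hoxa10 at 21 and Hoxa11 at 18, and the 120 h list had Hoxc9 at 68, Hoxa10 at 41 and Hoxd8 at 40. Hoxa13, Hoxb13, Hoxc12, Hoxc13, Hoxd11, Hoxd12 and Evx2 had no region within 1 kb at any of the 4 stages. Regions of RNA polymerase II (PolII), an assay that the calls did not use, lay over 1 of the 14 posterior promoters at 108 h and over 7 at 168 h.

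**Figure D2:**
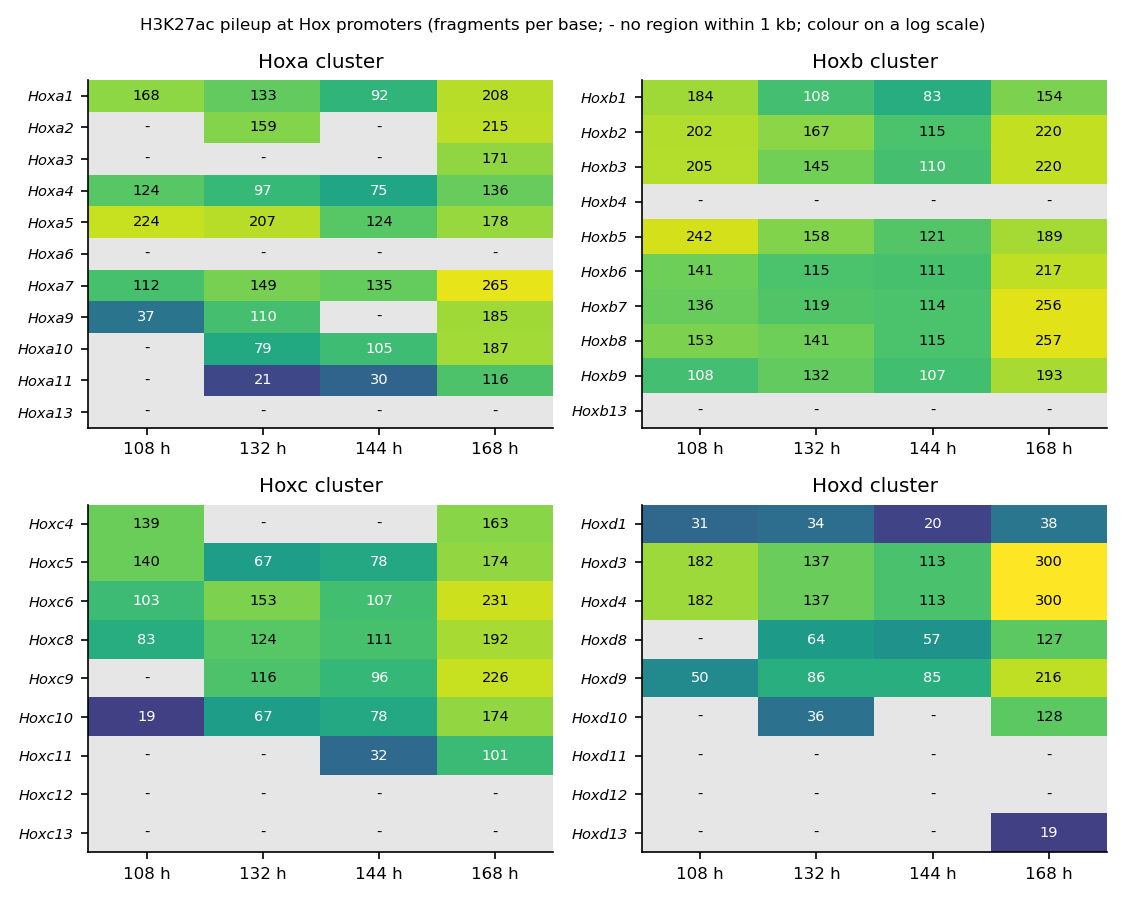
Heat maps of the pileup (fragments per base at the summit) of the H3K27ac region within 1 kb of each Hox start at the 4 stages, 1 panel per cluster, with the value printed in each cell, colour on a log scale and a dash in grey where no region was called. Hoxc9, Hoxd8, Hoxa10, Hoxa11 and Hoxc11 have a dash at 108 h and reach 101 to 226 at 168 h; Hoxd3 and Hoxd4 share 1 region.

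Promoters of neural progenitor genes were gained and lost. Of 34 genes in this list 5 were gained (14.7%, against 0.826% of all promoters) and 4 lost (11.8%, against 2.84%); at equal length the counts were 7 and 1. Pou3f2, which encodes the neural POU factor Brn2, had no region at 108 h and pileups of 32, 34 and 128 at the later stages. Sox3, a SOXB1 factor of neural progenitors, had none and then 34, 31 and 58. Fabp7, the fatty acid binding protein of radial glia, had no region at 108 h or 132 h and then 24 and 62, and Prdm13, a regulator of dorsal spinal cord neurons, went from 21 to 35 between 144 h and 168 h. Zic1, a dorsal neural zinc finger factor, had 32, 17 and 45 at the 3 later stages. These promoters were not all bare before 108 h. In the 96 h list Sox3 had 42, Zic1 29, Fabp7 17 and Pou3f2 16, and Prdm13 had none. PolII was listed over Sox3 already at 108 h. All 5 kept the call at equal length and with the wider window. With a −log10 q of at least 5, Pou3f2 and Sox3 kept it and Fabp7, Prdm13 and Zic1 did not. The 4 lost promoters, Olig3, Nkx6-2, Nkx2-9 and Lhx2, were low at 108 h, with pileups of 14, 17, 13 and 22, and only Nkx6-2 was still called lost at equal length.

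Genes of related lists were gained singly. Ednrb, the endothelin receptor of neural crest cells, had no region at 108 h and then 16, 30 and 82. Onecut1, a homeodomain factor of motor neurons and liver, was listed at 18 and 33 at 144 h and 168 h. Pax1, a sclerotome factor, had 29, 34 and 17 and is the one somite gene of 29 that was gained. Cyp26b1, which degrades retinoic acid, had 15 and 23 at 144 h and 168 h. The collagen genes Col3a1 and Col1a1 were listed at 28 and 20 and at 17 and 13 at those stages, and neither kept the call at equal length. In the 96 h list Onecut1 had 24, Pax1 14 and Ednrb 12, and Cyp26b1, Col3a1 and Col1a1 had none.

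Promoters of the tail bud and of the presomitic mesoderm were on the losing side. Of 26 tail bud and axial progenitor genes 4 were lost (15.4%, against 2.84% of all) and none gained. Of 22 presomitic and segmentation genes 3 were lost (13.6%) and none gained. The tail bud losses were the ligand genes Fgf17, Fgf18 and Fgf4 and the Wnt target Sp5. Fgf17 had a pileup of 42 at 108 h and 37 in the 120 h list, Fgf18 had 29 at 108 h, and neither had a region within 1 kb at 132 h, 144 h or 168 h. The nearest 132 h region to Fgf17 lay 1341 bp away. Fgf4, with 20 at 108 h and 22 at 132 h, was not called lost at equal length. Sp5 had 83 at 108 h, 47 in the 120 h list and none within 1 kb from 132 h on, but within 2.5 kb its values at the 4 stages were 83, 40, 27 and 34, so a lower region was still called nearby.

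Msgn1, the bHLH factor mesogenin of the presomitic mesoderm, lost its region in steps. Its pileup was 65 at 108 h and 17 at 132 h, after 60 in the 96 h list and with 25 in the 120 h list, and later stages had no region. The call was the same at equal length and with the wider window, and all 3 of its distal regions at 108 h were lost as well, where 54.3% of all distal regions of 108 h were. Hes7, a core oscillator of the segmentation clock, had 97 at 108 h, 46 in the 120 h list and no region within 1 kb from 132 h on, but 116, 44, 25 and 46 within 2.5 kb. Dkk1, a secreted Wnt antagonist, had 24 and 21 at 108 h and 132 h and none later. PolII was listed over Dkk1 at all 4 stages, and over Msgn1 at none.

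The remaining losses included genes of lateral and intermediate mesoderm (4 of 20, and 4 at equal length) and cardiac genes (4 of 20, and 2 at equal length), against 2.84% and 1.73% of all promoters. Lhx1, a LIM homeodomain factor of intermediate mesoderm, had 67 at 108 h, 26 in the 120 h list and no region from 132 h on, and Prrx2, a limb and lateral mesoderm factor, had 46 and 27 at 108 h and 132 h. Tbx20, a cardiac T-box factor, had 30 and 17, and Tnni1, a troponin gene, 31 at 108 h after 68 in the 96 h list and none at the 3 later stages. Uncx, which marks caudal somite compartments, had 37 and 46 and then none within 1 kb, but kept a region within 2.5 kb. Actc1 and Myh7, which encode cardiac actin and myosin, were low at 108 h, at 16 and 14, and were not called at equal length.

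The other lists moved by few genes, but in short lists these made shares like those above. Lost promoters were 16.7% of notochord and 12.5% of p53 genes, against 15.4% of tail bud genes and 2.84% of all. Gained ones were 10.5% of matrix genes, against 0.826% of all. At equal length these 3 counts were 1, 0 and 0 promoters. Gained and lost promoters numbered 1 and 0 of 14 neural crest genes, 1 and 3 of 41 neuronal genes, 1 and 2 of 29 somite genes, 2 and 1 of 29 endoderm genes, and 0 and 1 of 27 endothelial and blood genes. They numbered 0 and 2 of 12 notochord genes, 0 and 1 of 28 pluripotency genes (Otx2, at 16 at 108 h), 1 and 1 of 17 retinoic acid genes, and 2 and 0 of 19 matrix genes. Of the lists that follow cell state, 1 and 2 of 16 p53 targets, 0 and 1 of 20 hypoxia genes and none of 16 immediate early genes were gained and lost. Several list genes had no region at any of these stages, among them Myog and Myod1 of differentiating muscle, Dcx and Stmn2 of neurons, and Olig2 and Nkx2-2 of the ventral neural tube. None of the 80 cytosolic ribosomal protein genes, whose promoters are active in every cell, was gained or lost. Defining genes of an elongating, posterior aggregate (T, Cdx2, Tbx6, Dll3, Meox1, Sox2) did carry regions at 108 h.

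Genome-wide, the strongest gained promoters outside the lists, by percentile of −log10 p, included Hace1, a ubiquitin ligase gene, with 82, 43 and 84 at the 3 later stages. Itpka, Runx1t1 and Pou2f2 were also among them, with 57, 56 and 61 at 168 h. All of these had a region in the 96 h list too, Hace1 at 33, Itpka at 35, Runx1t1 at 18 and Pou2f2 at 12. The strongest lost promoters included Rbbp8nl, with 57 at 108 h and 39 at 132 h, and Ush1c, with 65 and 40. Others of these calls lay at the edge of the 1 kb window: Kcnh8 had its nearest 108 h region at 1063 bp and its later ones at 980 to 1000 bp, and Apobr had 966 bp at 108 h and 1029 to 1108 bp later.

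Height changes at promoters that carried a region at both ends were compared for the same groups. To compare libraries, each pileup was divided by the median of the promoters kept at all 4 stages in that library; this measure was added after the data were seen. Of 11908 promoters with a region at 108 h and at 168 h, 193 (1.62%) were at least 2-fold taller at 168 h and 289 (2.43%) at least 2-fold lower. The SD of the log2 ratio was 0.44, against 0.28 to 0.42 between libraries of one stage, where 0.104% to 1.45% of promoters passed 2-fold in one direction. Genome-wide the heights therefore differed only slightly more between 108 h and 168 h than between libraries of one stage.

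Neural progenitor promoters were taller. Of 18 with a region at both stages, 7 were at least 2-fold taller (38.9%, against 1.62% of all) and none 2-fold lower. Sox2, the SOXB1 factor of pluripotent and neural cells, had pileups of 53, 81, 74 and 180 from 108 h to 168 h, a log2 change in relative height of 1.47. Sox21 went from 24 through 42 and 44 to 138 (log2 change 2.23), and Sox1 from 18 through 34 and 36 to 78 (1.83). The homeobox genes Pax6, Irx3 and Irx5 of the neural tube reached 123, 144 and 131 from 35, 32 and 30, and the seventh was Nes, the intermediate filament nestin, from 35 to 98. In each of these 7 genes the 168 h pileup was the highest of the 4. This adds no support, because they were picked as taller at 168 h. That library also had the tallest kept promoters, with a median of 88 against 72 at 108 h. Sox9, listed among somite derivatives and also made by neural crest and neural progenitors, went from 35 to 112 (log2 change 1.39), and Pax7 from 28 to 73.

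Tail bud promoters were lower. Of 21 with a region at both stages, 9 were at least 2-fold lower at 168 h (42.9%, against 2.43% of all) and 1, Sp8, was 2-fold taller. T, the T-box factor brachyury that maintains axial progenitors, had pileups of 100, 59, 38 and 44, a log2 change in relative height of −1.47. Cdx1, a caudal homeobox gene, had 124, 58, 30 and 33 (log2 change −2.20). The ligand and modulator genes Wnt3a, Wnt5b, Fgf8, Rspo3 and Notum were also among the 9, as were Evx1 and Cyp26a1, with log2 changes from −1.54 to −1.03. Fgf8 had no region at 144 h and 37 at 168 h against 65 at 108 h. Axin2, a general Wnt feedback gene, was not: its values were 183, 195, 118 and 280.

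Presomitic and somite genes went the same way in part. Of 16 presomitic promoters 6 were at least 2-fold lower (37.5%) and none taller: Cer1, Ripply1, Dll3, Tbx6, Aldh1a2 and Ripply2, with log2 changes from −1.65 to −1.20. Tbx6, the T-box factor that specifies presomitic mesoderm, had 103, 43, no region, and 51. Dll3, a Notch ligand of the clock, had 131, 51, 35 and 63. By contrast Lfng, Hes1 and Epha4 had 98, 113 and 110 at 168 h against 46, 79 and 56 at 108 h. Their log2 changes were 0.80, 0.23 and 0.68, and of the 16 promoters 6 were above 0 and 10 below it. Of 17 somite promoters 5 were 2-fold lower, among them Tbx18, Foxc2, Tcf15 and Foxc1, with log2 changes from −1.96 to −1.10. Among smaller lists, 4 of 12 retinoic acid, 2 of 7 endothelial and blood and 2 of 6 intermediate and lateral mesoderm promoters were 2-fold lower and none taller, and 2 of 12 central Hox promoters, Hoxa9 and Hoxd9, were taller. Lef1, a nuclear partner of β-catenin, was among the genome-wide lowest, at 213 and 66 at 108 h and 168 h.

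The size of these groups depended on the scaling and on the late stage used. With heights divided by each library's lowest background instead, the median over all genes shifted by 0.36 on the log2 scale, 8 neural promoters were 2-fold taller, and only 3 tail bud, 1 presomitic and 2 somite promoters were 2-fold lower, with the presomitic median turning from −0.20 to 0.21. With 144 h in place of 168 h, 6 neural promoters were taller, and 1 tail bud, 2 presomitic and no somite promoters were lower.

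**Figure D3:**
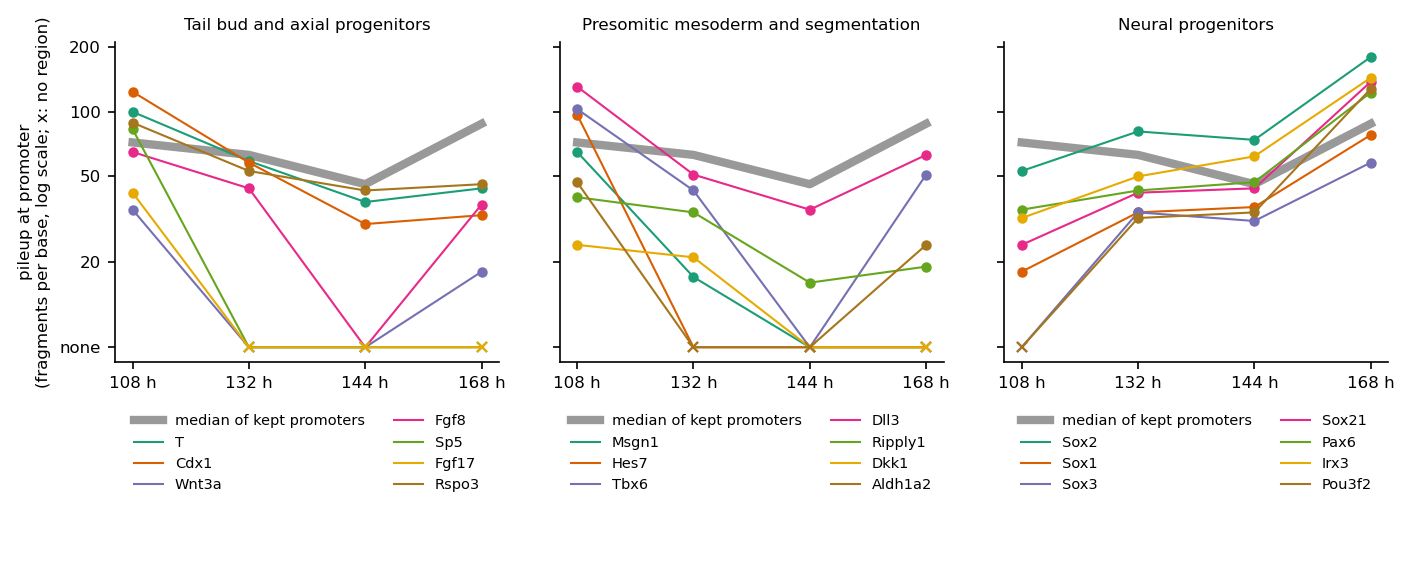
Pileup at 7 tail bud, 7 presomitic and 7 neural progenitor promoters (fragments per base, log scale, a cross where no region was called within 1 kb) at the 4 stages, with the median of the promoters kept throughout as a thick grey line. At 168 h the drawn tail bud and presomitic promoters lie below the grey line, and Sox2, Sox21, Pax6, Irx3 and Pou3f2 lie above it after lying below it or having no region at 108 h. The drawn genes were picked from each list. Other members lie above the grey line at 168 h, among them Axin2 (280) of the tail bud and Notch1 (150) of the presomitic list.

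**Figure D4:**
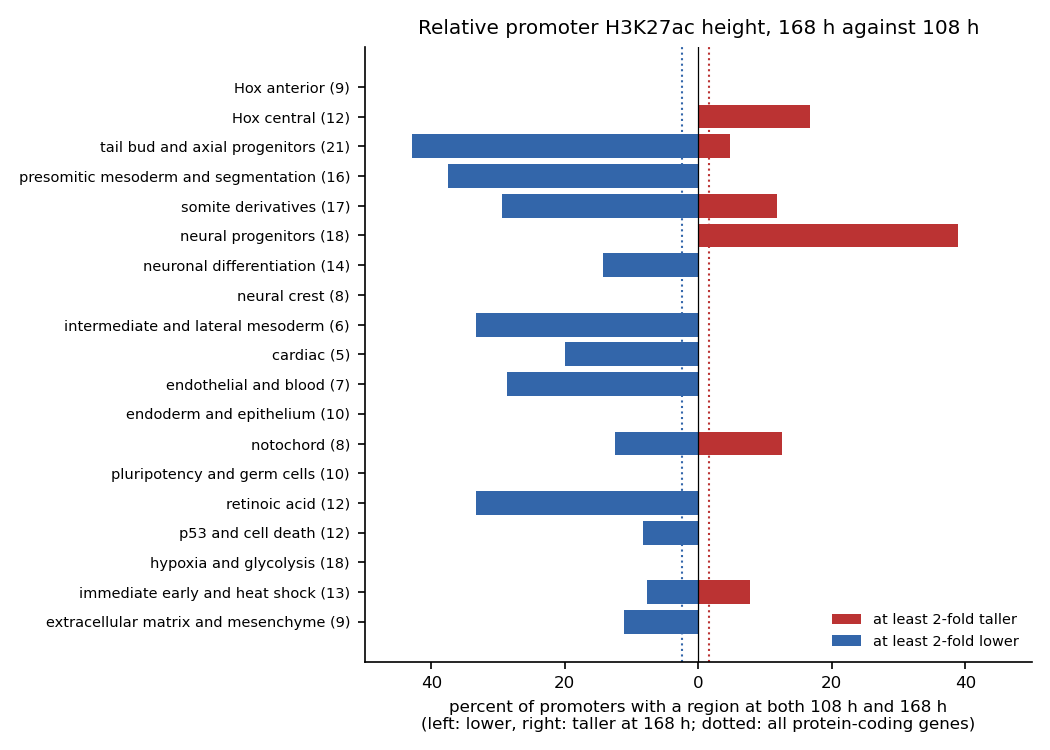
Percentage of promoters with a region at both 108 h and 168 h whose relative height was at least 2-fold lower (bars to the left) or taller (bars to the right) at 168 h, by gene list, with the number of such promoters in brackets and the value over all genes dotted (2.43% and 1.62%); posterior Hox genes, with 2 such promoters, are not drawn. The bar for taller is longest for neural progenitors (38.9%), and the bars for lower are longest for tail bud (42.9%) and presomitic genes (37.5%).

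Distal regions assigned to the nearest protein-coding start changed in number by list. Neural progenitor genes had 87, 71, 55 and 147 distal regions in order of stage, which was 0.427% of all distal regions at 108 h and 0.753% at 168 h. Before 108 h the share was not lower. Among the same distal regions, those also called at 48 h, 72 h, 84 h or 96 h gave shares of 0.618% to 0.691%. Neural crest genes went from 43 through 51 and 37 to 72. Somite genes went from 145 through 111 and 66 to 108, a fall in share from 0.712% to 0.553%, and intermediate and lateral mesoderm genes from 71 to 44. By call, 20 distal regions of the neural list were gained and 38 lost at full length, and 25 and 17 at equal length. Tail bud genes had 3 gained and 38 lost, presomitic genes 6 and 49, and somite genes 13 and 80, beside 1830 and 11052 over all genes. Of the distal regions of 108 h, the lost ones were 42.2% for tail bud, 53.3% for presomitic, 55.2% for somite and 43.7% for neural progenitor genes, against 54.3% over all genes. These 4 shares were below or close to that of all genes.

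Single loci gave larger numbers. Sox9 had the most gained distal regions, 8, and its total was 17, 12, 11 and 29 in order of stage, with 11 of the earlier regions lost. Prdm16, a zinc finger gene of neural progenitors, and Tox3, a high mobility group gene, gained 6 each and went from 6 to 19 and from 7 to 21 between 108 h and 168 h. Around Pou3f2 there were 3, 5, 6 and 17, with 4 gained and none lost. On the other side Auts2 had the most lost, 27, and went through 39, 24, 11 and 18. Eya1, a transcriptional coactivator of somites and kidney, lost 15 of its 20 regions of 108 h at full length, and 5 regions at equal length, while its promoter stayed at 94 and 107 at 108 h and 168 h. Foxc1 lost 13 of 20, where 54.3% of all 108 h distal regions were lost. Tbx18 had 8 distal regions at 108 h, 1 at 132 h and none later, and all 8 were lost. Zfp608 was on both sides, with 7 gained and 15 lost.

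The strongest single gained region, chr11:77964537-77966736, lay 3.34 kb from the start of Sez6, a neuronal membrane protein gene, and had no region at 108 h and pileups of 14, 43 and 114. The next, chr1:132321531-132322845 near Nuak2, had 66, 78 and 124, after 70 in the 96 h list. The strongest lost region, chr7:83736851-83737877 near Il16, had 85 at 108 h and 16 at 132 h, and chr11:119387796-119388292 near Rnf213 had 83 at 108 h, after 66 in the 96 h list and with 33 in the 120 h list, and none at the 3 later stages. The 5 strongest of each direction were all called in both numbered 120 h libraries and kept their call at equal length.

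Assays that the calls did not use separated the gained from the lost sets. In the 2 numbered H3K27ac libraries of 120 h, 71.8% and 68.0% of distal gained regions were present, against 41.3% and 38.8% of the lost and 50.7% and 47.2% of all distal regions. At promoters the same libraries held 34.8% and 28.7% of the gained and 21.7% and 16.7% of the lost, against 52.1% and 50.5% of all. Distal gained regions thus were called in other libraries more often than distal regions in general, and distal lost regions less often. By the rule a gained region had to be called in 2 lists and a lost region in 1, and how far this set the difference was not tested. In the unnumbered lists the gained promoters were not bare before 108 h: 84.5% carried a region at 72 h and 80.7% at 96 h, against 64.4% and 61.4% of all promoters. In the 2 numbered 96 h libraries the shares of gained promoters were 39.2% and 31.5%, below the 56.2% and 53.9% of all promoters and the 47.7% and 40.4% of the lost ones.

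NIPBL lay over 6.50%, 15.2%, 57.9% and 57.7% of distal gained regions at 108 h, 132 h, 144 h and 168 h. Over distal lost regions the shares were 12.5%, 9.09%, 19.1% and 10.1%, and over all distal regions 13.6%, 14.8%, 34.4% and 29.0%. The gained set was below all regions at 108 h and above them at 144 h and 168 h, and the lost set was below them at both late stages. The NIPBL lists themselves grew from 20905 and 19948 regions to 40490 and 37907. RAD21, a cohesin subunit, lay over 10.9%, 48.9%, 46.3% and 13.7% of distal gained regions in the first replicate. Over distal lost regions its shares in that replicate were 12.9%, 10.1%, 8.05% and 5.22%. In the second replicate it lay over 11.5%, 30.5% and 21% of distal gained regions at 108 h, 132 h and 144 h. The series holds no 168 h library of that replicate. A further RAD21 library of 144 h is not listed here. RAD21 over all distal regions is drawn in the plot of overlap by stage and is not compared here. The shares above therefore do not show whether the changes were particular to gained regions. In order of stage the RAD21 lists of the first replicate held 45576, 53461, 50897 and 34316 regions. Gained regions were wider than lost ones, with medians of 749 bp and 418 bp. How far width set the differences in NIPBL and RAD21 overlap was not tested.

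At promoters, PolII was listed over 24.9%, 30.4%, 59.1% and 63.0% of the gained set from 108 h to 168 h, over 6.91%, 5.79%, 14.0% and 11.1% of the lost set, and over 91.0%, 91.7%, 97.1% and 96.7% of the kept set. Over all promoters it went from 48.3% to 53.7%. PolII thus became more frequent at gained promoters with the mark, whereas lost promoters rarely had it even at 108 h. By list, it went from 13 to 23 of 34 neural progenitor genes and from 10 to 21 of 41 neuronal genes, beside 10579 and 11763 of all genes. It rose in most other lists too, as from 3 to 11 of 29 endoderm, 4 to 8 of 12 notochord and 3 to 7 of 14 neural crest genes. The only lists in which it fell were tail bud, from 23 to 19 of 26, and presomitic genes, from 18 to 14 of 22. H3K27me3, the Polycomb mark, was listed at 120 h over 70.7% of gained, 56.1% of lost and 21.9% of kept promoters, and at 144 h over 58.6%, 47.9% and 15.3%. Promoters that changed in either direction were therefore more often Polycomb-marked than the 22.9% and 17.3% of all promoters.

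**Figure D5:**
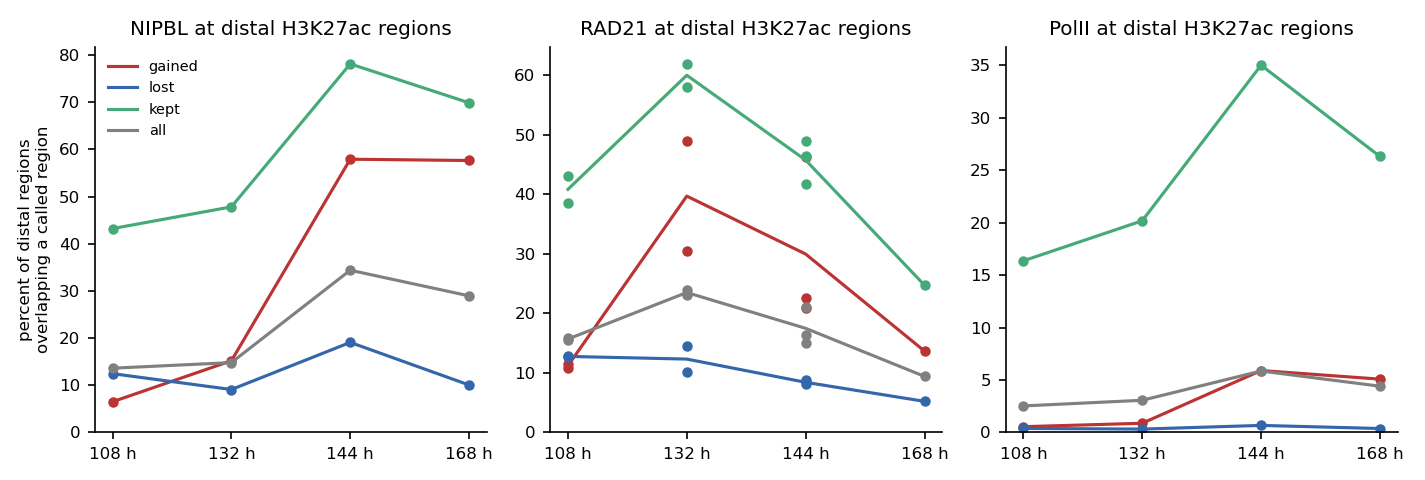
Percentage of distal H3K27ac regions that overlapped a region of NIPBL, RAD21 or PolII at 108 h, 132 h, 144 h and 168 h, for gained, lost, kept and all regions; each point is 1 library and the RAD21 lines join the means of the replicates. NIPBL over gained regions goes from 6.50% to 57.7%, crossing the line of all regions, while it stays at or below 19.1% over lost regions.

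Short motifs were counted on both strands in distal regions, 22 in all. In windows of 201 bases around the summit, the SOX word CATTGT, as in the Sox9 and Msgn1 regions shown above, was in 8.52% of gained, 8.77% of lost and 9.58% of all windows, so the sets hardly differed there. Over whole regions, a count added after the data were seen, it occurred 0.667 times per kb in gained, 0.506 in lost and 0.560 in all distal regions, a ratio of gained to lost of 1.32 at full and 1.29 at equal list length. Limited to regions of 40% to 50% GC the ratio was 1.28. The T-box word AGGTGTGA went the other way, at 0.040 per kb in gained and 0.051 in lost regions (ratio 0.79), as did the TCF/LEF word CTTTGAT at 0.182 and 0.206 (0.88). Other words of the 22 differed as much. At full length the ratio was 1.22 for the CDX/HOX word TTTATNG, where N is any base, but 1.08 at 40% to 50% GC. It was 1.14 for the PBX word TGATNNAT. The HOX9 word TTTACGA had a ratio of 0.60 and the ETS word CCGGAAGT one of 0.73, with only 22 and 13 matches in gained regions. Gained regions were wider than lost ones and the words are short. The differences in density for the SOX, T-box and TCF/LEF words are small, and a match is not a binding site.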

How the data were processed

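H3K27ac was profiled by ChIP–seq. Per the submitters' processing notes, reads were trimmed (cutadapt 1.16), mapped to mm10 (Bowtie2 2.3.4.1, SAMtools 1.8) and peaks called for each library on its own (MACS2 2.1.1.20160309). The authors deposited, for each summit, the fold enrichment over local background (a ratio) and −log10 p-values and q-values. The deposited lists hold no read totals. By the sequenced read pairs that the study states, the 4 libraries were of similar depth, and the mapped depth is not given in the sources used here.

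Summits sharing an interval were joined into 1 region. The pileup was recovered from fold enrichment and −log10 p (tolerance 0.001, at least 99.98% of summits). Overlap needed 1 base. Transcript starts came from GENCODE vM21. Named were the 5 strongest changed genes per list and direction with all Hox genes, the 15 strongest promoters and 5 strongest distal regions each way by percentile of −log10 p, and the 10 genes with the most gained or lost distal regions; others named were chosen after their values were seen. Members and the 20 gene lists (431 entries) were chosen with earlier results of these data known. Replicates are separate samples per the labels; whether they came from separate cultures was not given there. Mutant and phosphorylated PolII lists were not used here. Scripts (Python 3.11.15, numpy 2.4.6, pandas 2.3.3, scipy 1.17.1, matplotlib 3.10.9) were tested on simulated data. Alternatives were equal list lengths, stricter q, other windows and overlaps, a common minimum pileup, and leaving out a stage.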

Additional observations from a re-analysis of the deposited data

How the results depend on the processing

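No paired analysis was possible because no result comes from a test and there was 1 library per stage. Against 181 gained and 622 lost promoters and 1830 gained and 11052 lost distal regions, equal list length by −log10 p gave 346 promoters gained, 380 promoters lost and 4338 distal regions lost, and equal length by fold enrichment gave 342 promoters gained and 4924 distal regions lost. A −log10 q of at least 5 gave 352 promoters lost, 595 distal regions gained and 3767 lost. Without the 144 h library 634 promoters and 11281 distal regions were gained, and without the 168 h library 1387 promoters were lost and 3554 distal regions gained. When 132 h also had to match the late stages 410 promoters were lost and 912 distal regions gained, and when it had to match 108 h the counts were 59 and 212 promoters and 918 and 2411 distal regions gained and lost. The cause was not tested, except that fewer regions or fewer stages enter by construction. A 2.5 kb window, a 50% overlap and a common minimum pileup moved none of the 4 totals by over 1.5 times. Of 73 named promoter calls, 57 were the same at equal length by −log10 p and 57 with the 2.5 kb window, 43 with the stricter q and 73 with the common minimum. For heights, 2 alternatives were chosen after seeing the data: scaling by the lowest background gave 787 promoters 2-fold taller and 72 lower, and 144 h in place of 168 h gave 312 and 24, against 193 and 289. With 1 library per stage, differences in cell composition and in immunoprecipitation between collections cannot be told apart from stage.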
